A study of Homo sapiens with 26 samples.

Results

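The genes described here are the well expressed members of the human ZNF family in U2OS, an osteosarcoma cell line. They were chosen by symbol and by measured level: rows of the deposited expression table named ZNF followed by a number and at most 1 letter, and selected on a pH 7.4 average of 5 FPKM or more over 13 libraries. FPKM is a fragment count scaled to transcript length and library depth, so it can be compared between genes of different length. The rule found 170 genes of the 509 ZNF symbols in a table of 19704 symbols. Of the other ZNF symbols, 222 lay between 1 and 5 FPKM and 117 below 1 FPKM. The cells carried an Arntl::dLUC reporter of the circadian clock in both groups. They were changed to medium of pH 7.4 (neutral) or pH 6.3 (acid). PIPES and HEPES, 25 mM each, buffered both media, and both contained 5% serum and 0.1 uM dexamethasone, which sets the clocks of the cells to a common phase. Harvests ran from 4 to 52 h in steps of 4 h, with 1 library per pH and time, which gives 13 libraries per pH and 26 in all. The 13 libraries of a pH are times, not replicate cultures of 1 time, so a spread or test over them measures how steady a value was over time. The libraries of 4 to 24 h and those of 28 to 52 h came from separate sets of plates, so later time and the other set of plates cannot be told apart.

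ZNF genes mostly code for C2H2 zinc finger proteins, in which a pair of cysteines and a pair of histidines hold a zinc ion and the finger between them contacts DNA. Many also carry a KRAB box, which recruits the co-repressor TRIM28 and through it histone methylation and heterochromatin, and whose best known targets are transposable elements. Others carry a SCAN domain, through which such proteins pair with each other. The symbol is a name and not a function: some ZNF proteins act in the cytoplasm, on RNA or on the cytoskeleton.

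The repeated finger is what the members share in sequence. A search of the proteins translated from GENCODE 29 transcripts found a median of 9 fingers per member and at most 33. In 132 members there were 5 or more fingers, 10 members had 1, and 5 had none (ZNF185, ZNF330, ZNF365, ZNF487 and ZNF720). A KRAB pattern was found in 84 members and a SCAN pattern in 12, with 4 members holding both. The KRAB search can miss divergent boxes, so the other 86 members are those without the pattern rather than those without the domain. The coding sequence of the first finger and its linker is shown for the member with the largest decrease in acid and for the member with a KRAB pattern and the largest increase, from GENCODE 29 transcripts, 5′ to 3′. Capitals mark the codons of the zinc-binding cysteines and histidines.
ZNF860: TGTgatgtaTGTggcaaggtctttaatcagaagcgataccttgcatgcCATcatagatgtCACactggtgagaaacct
ZNF841: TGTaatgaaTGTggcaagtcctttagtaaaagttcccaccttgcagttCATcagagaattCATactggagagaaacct
Of the 78 bases, 57 were identical between the 2 genes. Over whole coding sequences, 36 members shared at least 1 stretch of 50 bases with another gene, and 10 members shared more than 10% of such stretches. The most affected was ZNF587, which shared 66.6% with ZNF417, so its FPKM may hold fragments of that gene.

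The members were mostly genes of low expression. Their median of the pH 7.4 means was 8.49 FPKM, against 19.7 FPKM for the 8146 other tested genes within the members' range of 5.04 to 138 FPKM. By level, 98 members lay between 5 and 10 FPKM, 41 between 10 and 20 and 31 at 20 or more. Just inside the threshold lay ZNF350 with 5.04, ZNF841 with 5.07 and ZNF614 with 5.07 FPKM, and just outside ZNF618 with 4.93, ZNF721 with 4.95 and ZNF510 with 4.96 FPKM. All 170 members passed the filter for testing, an average of 1 FPKM or more across the 26 libraries, as did 11838 genes in all.

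Depth was read from the smallest steps between FPKM values. It came to 19900000 to 36100000 fragments in 24 libraries, 9800000 fragments in the neutral 12 h library and 11300000 fragments in the acid 8 h library. At the members' median transcript length of 4698 bases, 5 FPKM corresponds to about 220 fragments in the shallowest library and 812 in the deepest. The deviation of each library from the gene's mean over all 26 libraries was set against the GC content of transcripts. In 4 libraries (pH 7.4 at 28, 44 and 48 h, pH 6.3 at 20 h) it followed GC content across genes, with r beyond 0.5 in size. A difference between the media that goes with GC content also enters this r. Of the 10 markers listed for a mesenchymal line 9 were present, with a summed level of 3800 to 5850 FPKM at pH 7.4 and 2540 to 4000 FPKM at pH 6.3. Summed epithelial markers gave 6.86 to 15.4 and 4.62 to 10.1 FPKM with 3 of 6 present. Of 4 endothelial markers none reached 1 FPKM on average, and CDH5 stayed below 0.1 FPKM.

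Over the whole time course, acid moved individual ZNF genes in both directions, in shares near those of all tested genes. At pH 6.3, 39 of 170 members were higher (22.9%), where 22.4% of all tested genes were called higher, and 57 were lower (33.5%), where 37.3% of all tested genes were called lower. The remaining 74 were not called. In bulk libraries a change in some of the cells and a smaller change in all of them cannot be told apart. The test was limma on log2(FPKM + 1) with the time point as a block and Benjamini-Hochberg adjustment over all tested genes. The median difference of the members was -0.11 on that scale, against -0.13 for the other genes in the same range of neutral levels. Both medians lean on how the members were chosen. With membership set by the mean at pH 6.3 in place of pH 7.4, the members' median became 0.09 and that of the other genes -0.06. Of the 164 genes then chosen, 58 were called higher and 32 lower. The sign of the members' median and the balance of the calls thus depend on the rule and are no result about the family. Quantile normalization moved the median of all tested genes from -0.12 to -0.02, a shift of 0.11. Under it 53 members were higher and 42 lower, and the medians were 0.025 for the members and -0.053 for the other genes. The share of all tested genes called in that setting is not given here, so these counts are no result about the members. Relative to the median of all tested genes, 88 members lay above it as deposited and 93 under quantile normalization.

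**Figure D1:**
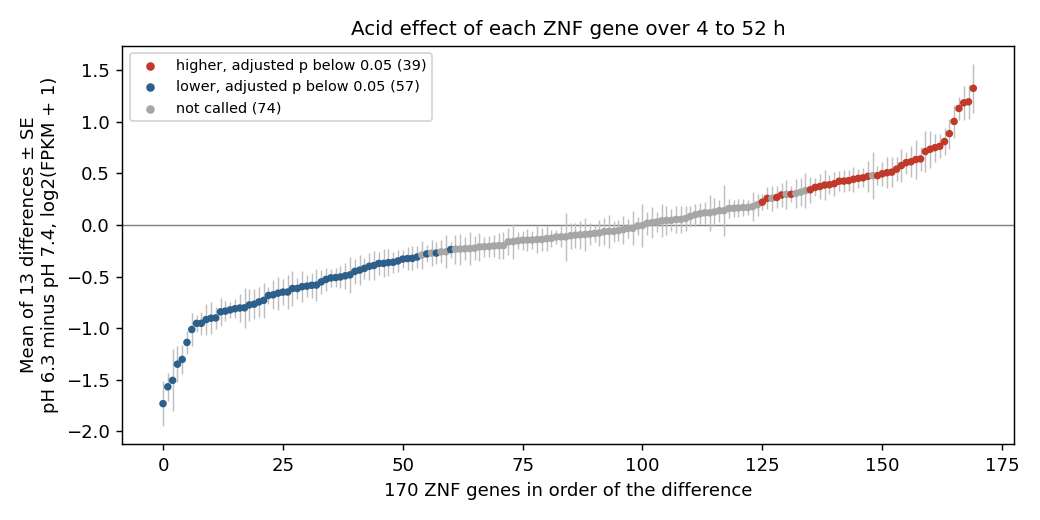
Mean difference between pH 6.3 and pH 7.4 over 13 times, with its SE, on the log2(FPKM + 1) scale for each of the 170 ZNF genes in rank order. The values run from -1.73 (ZNF860) to 1.32 (ZNF598), with 39 called higher, 57 called lower and 74 not called.

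Changes of 2-fold or more that passed the test were few. They were upward in 5 members, or 2.94% (3.41% of all tested genes), and downward in 7, or 4.12% (5.6% of all tested genes). At 13 of 13 times, 2 members were higher in acid (4.43% of all tested genes), and 17 were lower (8.19% of all tested genes). By level, the members called higher and lower were 12 and 20 of 63 at 5 to 7.5 FPKM, 11 and 13 of 35 at 7.5 to 10 FPKM, 8 and 13 of 41 at 10 to 20 FPKM, and 8 and 11 of 31 above. The shares of the other genes called higher and lower in these ranges were 22.1% and 37.3%, 19.8% and 37.8%, 21.9% and 38.2%, and 22.5% and 39.8%.

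The member with the largest increase was ZNF598, an E3 ubiquitin ligase that marks collided ribosomes and holds 1 finger matched here (chr16:1997654-2009823, minus strand, hg38). Its level at pH 7.4 was 1.95 FPKM at the lowest, 6.45 at the median and 14.4 at the highest library, and at pH 6.3 it was 7.52, 16.3 and 31.7 FPKM. Acid was higher at 12 of 13 times, and the exception was 28 h, when both libraries were close to 14 FPKM (14.4 neutral and 14.3 acid). The difference was 1.32 ± 0.24 (SE) with an adjusted p of 0.000166. The neutral 28 h and acid 20 h values of ZNF598 are the highest of their pH, and both come from libraries whose deviation followed GC content (r = 0.625 and 0.55). The neutral 44 and 48 h libraries also followed it (r = -0.53 and -0.616) and held the lowest neutral values of ZNF598, 3.05 and 1.95 FPKM. Its differences at these times were the largest, 2.65 and 3.16. The direction and call were the same in 23 alternative settings. These included GC correction and a fit without the libraries of low depth or strong GC deviation. The part of GC content in the size of the difference was not tested.

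The next 2 were KRAB genes on chromosome 19. ZNF841 (chr19:52064466-52095765, minus strand) held 20 fingers. It ran from 2.03 over a median of 5.53 to 6.47 FPKM at pH 7.4, and from 2.21 over 15.6 to 21.0 FPKM at pH 6.3. From 12 h onward every acid library was above every neutral one, while at 4 and 8 h both media gave 2.03 to 3.99 FPKM. The difference was 1.19 ± 0.17 (SE) with an adjusted p of 1.83e-05. ZNF841 overlaps ZNF432 on the same strand, so reads there may be shared. ZNF587 (chr19:57849857-57865112, plus strand), the gene that shares most of its coding sequence with ZNF417, ran from 5.60 to 8.82 FPKM at pH 7.4 with a median of 7.53. At pH 6.3 it ran from 4.66 to 30.2 FPKM with a median of 21.4, and its difference was 1.18 ± 0.17 (SE), adjusted p 2.37e-05.

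ZNF275, on the X chromosome (chrX:153334147-153360110), had the smallest error of the large increases. Its neutral libraries spanned 4.51 to 7.45 FPKM and its acid libraries 6.75 to 20.1 FPKM, and acid was higher at 12 of 13 times. The difference was 1.13 ± 0.12 (SE), adjusted p 1.21e-06. ZNF226, ZNF140 and ZNF12, all with a KRAB pattern, gave differences of 1.00, 0.88 and 0.76. ZNF24, a SCAN protein known as a repressor of VEGFA transcription, went from a mean of 24.8 ± 2.93 to 45.1 ± 10.3 FPKM (SD, n = 13), a difference of 0.81 ± 0.13 (SE) with an adjusted p of 7.18e-05. All 4 were higher in acid at 12 of 13 times.

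ZNF860 fell most (chr3:31981771-31991628, plus strand). It has a KRAB pattern and 12 fingers. The neutral series climbed from 3.98 FPKM at 4 h over 12.6 at 24 h to 16.8 at 48 h, while the acid series started at 6.90 FPKM at 4 h and stayed between 1.35 and 3.40 FPKM from 8 h on. The 4 h libraries were thus the only pair in which acid was higher, and from 8 h on the groups did not overlap. The difference was -1.73 ± 0.22 (SE) with an adjusted p of 8.01e-06. ZNF860 lies on the strand opposite OSBPL10, and whether strand was used in counting is not given in the sources used here.

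ZNF239 (chr10:43556344-43574618, minus strand) was lower in acid at all 13 times. It spanned 3.68 to 12.0 FPKM at pH 7.4 and 1.29 to 3.35 FPKM at pH 6.3, so no acid library reached the lowest neutral one. The difference was -1.57 ± 0.13 (SE), adjusted p 2.34e-07. ZNF114 (chr19:48270102-48287608, plus strand) had the largest error of all members. Its neutral level climbed from 7.12 FPKM at 12 h to 38.3 FPKM at 52 h, and its acid level peaked at 17.1 FPKM at 12 h, dropped to 2.36 FPKM at 28 h and ended at 9.30 FPKM. At 8 and 12 h acid was higher and at the other 11 times lower, and the difference was -1.51 ± 0.30 (SE), adjusted p 0.000443.

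**Figure D2:**
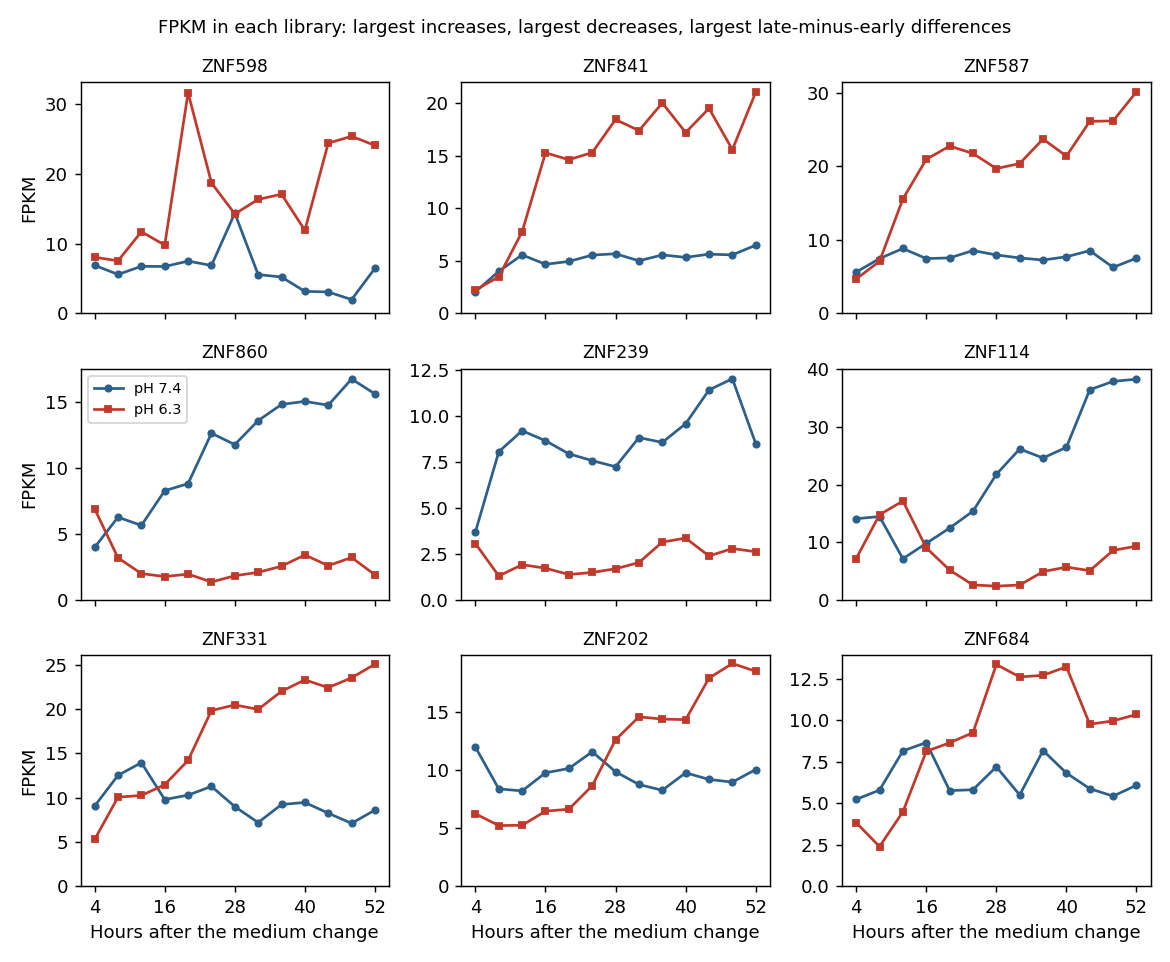
FPKM in each library against hours after the medium change for 9 ZNF genes, pH 7.4 in blue and pH 6.3 in red, each axis starting at 0. The top row holds the 3 largest increases and the middle row the 3 largest decreases over all times. The bottom row shows ZNF331, ZNF202 and ZNF684, whose acid series starts below the neutral one and ends above it.

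Among the other large decreases, ZNF75A, a KRAB gene, went from 31.3 ± 5.41 to 12.1 ± 3.94 FPKM (SD, n = 13). Both media gave about 15 FPKM at 4 h (15.4 and 15.2), after which neutral libraries lay at 26.6 FPKM or more and acid libraries at 17.2 FPKM or less. Its difference was -1.35 ± 0.17 (SE), adjusted p 9.72e-06. ZNF445, a SCAN and KRAB protein known for keeping methylation at imprinted regions, was the steadiest. It spanned 7.27 to 8.55 FPKM at pH 7.4 and 2.45 to 4.36 FPKM at pH 6.3, with the gap in place at 4 h (8.55 against 3.08 FPKM). Its difference was -0.95 ± 0.08 (SE), adjusted p 3.43e-07. ZNF365, ZNF821 and ZNF691 were lower in acid at all 13 times, by -1.30, -1.14 and -1.01.

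Of the 4 members of highest level 1 was called. ZNF207 is a microtubule-binding protein of the mitotic spindle. It had 120.0 to 177 FPKM at pH 7.4 and 115 to 245 FPKM at pH 6.3, the highest value at 16 h in acid, and its difference of 0.16 ± 0.09 (SE) was not called (adjusted p 0.124). ZNF706 (111 ± 10.5 and 103 ± 11.6 FPKM; SD, n = 13) and ZNF146 (74.2 ± 8.27 and 70.9 ± 13.5 FPKM), the latter made almost wholly of fingers, were not called either, with adjusted p of 0.171 and 0.415. ZNF664 rose from 86.4 ± 4.92 to 114 ± 23.4 FPKM, a difference of 0.36 ± 0.09 (SE) with an adjusted p of 0.002. It was below the neutral library at 4 and 8 h and above it at the other 11 times. ZNF664 overlaps FAM101A on the same strand.

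The hour-by-hour values were less even than the overall median. The members' median difference was -0.13 at 4 h, -0.53 at 8 h, -0.36 at 12 h and -0.12 at 16 h, and between -0.05 and 0.05 at each later time. The other genes of the same range gave 0.01, -0.14, -0.25 and -0.26 at 4, 8, 12 and 16 h, and -0.17 to 0.00 later. At 8 h, 130 members (76.5%) were lower in acid, against 59.5% of the other genes. By 2-fold or more in FPKM + 1, 41 members (24.1%) were lower, against 10.1%. At 12 h the shares were closer: 118 members (69.4%) were lower, against 62.8% of the other genes. On the same scale 35 (20.6%) were lower by 2-fold or more, against 18.1%. Lower at both 8 and 12 h were 105 members, or 61.8% (49% of all tested genes), and higher at both 27, or 15.9% (28.1% of all tested genes). In 90 members (52.9%) the most negative of the 13 differences fell at 8 or 12 h, as it did in 29.3% of the other genes. These 2 times were singled out after the hourly medians had been seen, and each holds 1 library of low depth, so no test is given. The other genes share the members' range but were not matched by level, with a median of 19.7 FPKM against 8.49 FPKM. The hourly shares were not split by level. Low values at these hours were not particular to ZNF symbols. Over 8 and 12 h the median difference was -0.445 in the members. In other C2H2 families of at least 5 FPKM it was -0.95 in 10 ZSCAN, -0.51 in 3 ZKSCAN and -0.43 in 7 ZFP genes. In 17 ZBTB and 7 KLF genes it was positive, with 0.33 and 1.00.

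**Figure D3:**
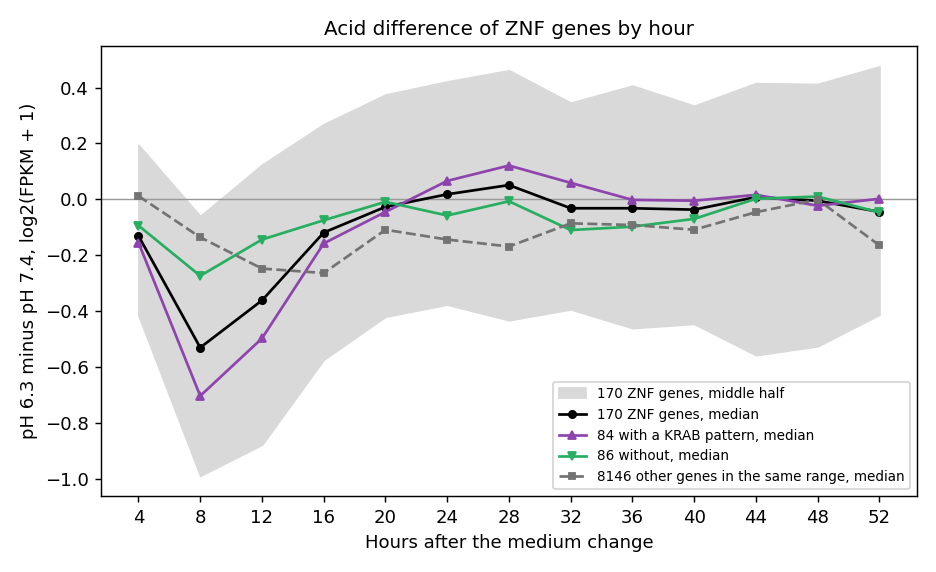
Median difference between pH 6.3 and pH 7.4 on log2(FPKM + 1) against hours after the medium change for the 170 ZNF genes, their 84 members with a KRAB pattern, the 86 without and 8146 other genes of the same range of neutral levels. The grey band spans the 25th to the 75th percentile of the 170 genes. The KRAB line is lowest at 8 h (-0.70) and within 0.16 of 0 from 16 h on.

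The early dip was deeper in the members with a KRAB pattern. Their median difference was -0.70 at 8 h and -0.50 at 12 h, against -0.27 and -0.14 in the members without. The other genes of the same range gave -0.14 at 8 h and -0.25 at 12 h. The members without the pattern were thus below them at 8 h only. Lower at both times were 62 of 84 members with the pattern (73.8%) and 43 of 86 without. Of all tested genes, 49% were lower at both times, so by this count the members without the pattern were close to all tested genes. Each gene's level relative to its own mean at pH 7.4 gives the media separately. At 4 h the KRAB members were low in both media, with a median of -0.55 at pH 7.4 and -0.69 at pH 6.3. At pH 7.4 the median stood at -0.06 by 8 h and 0.04 at 12 h. At pH 6.3 it was still -0.78 at 8 h and -0.54 at 12 h, and stood at -0.06 at 16 h. The members without the pattern were at -0.01 and -0.19 at 4 h, and the other genes at -0.05 and -0.06.

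**Figure D4:**
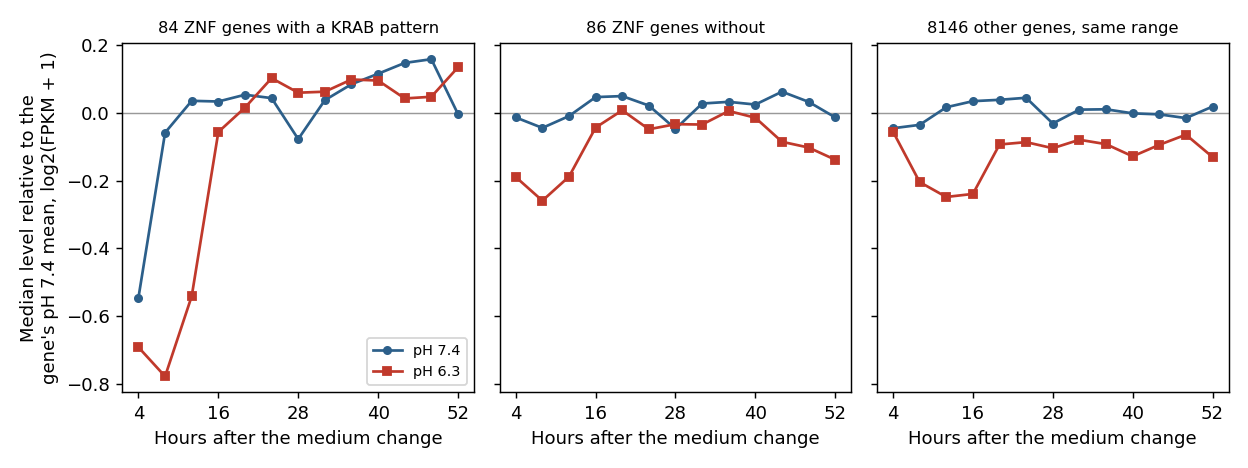
Median level relative to each gene's own pH 7.4 mean, in log2(FPKM + 1), against hours after the medium change, with pH 7.4 in blue and pH 6.3 in red. The KRAB panel starts at -0.55 and -0.69 at 4 h and comes within 0.1 of 0 by 8 h at pH 7.4 and by 16 h at pH 6.3.

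Counted by gene, the lowest of the 13 neutral libraries was the 4 h one in 90 members, or 52.9% (24.1% of all tested genes). It was so in 63 of the 84 members with a KRAB pattern and in 27 of the 86 without. The lowest of the 13 acid libraries was at 4, 8 or 12 h in 126 members, or 74.1% (45.5% of all tested genes), of which 74 have a KRAB pattern and 52 do not. ZNF226 (chr19:44165073-44178381, plus strand) is an example: it had 3.84 FPKM at 4 h and 7.42 to 11.8 FPKM from 8 h on at pH 7.4, and at pH 6.3 5.38, 5.61 and 9.44 FPKM at 4, 8 and 12 h before 20.6 FPKM or more. ZNF84, another KRAB gene, had 4.56 FPKM at 4 h and 10.4 FPKM or more later at pH 7.4, and at pH 6.3 it had 5.90 FPKM at 4 h, 4.55 FPKM at 8 h and 9.08 to 15.3 FPKM from 16 h on.

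The acid 8 h and neutral 12 h libraries are the 2 of low depth, and the part of depth in the values at these hours was not tested. The acid 12 h library, of 19900000 fragments, was also set against the mean of the neutral 8 and 16 h libraries. This gave a median of -0.29 for the 170 members and -0.23 for the other genes. The KRAB members had -0.51 and the members without the pattern -0.17. The correlation of a library's deviation with GC content across genes was 0.038 for the acid and -0.062 for the neutral 8 h library. Within the band of 40.2 to 48.1% transcript GC that holds the middle of the members, 84 members had a median of -0.50 over 8 and 12 h and 2849 other genes -0.25. The part of GC content in these values was not tested.

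A contrast that the choice of members did not use is the second day (28 to 48 h) against the first (4 to 24 h) within pH 6.3, with the clock time as a block. Here 60 members rose, or 35.3% (21.8% of all tested genes called higher), and 10 fell, or 5.88% (13.7% of all tested genes called lower). The median change of the members was 0.27, against 0.07 in the other genes of the range. Of the 60, 41 have a KRAB pattern, which is 48.8% of the 84, and none of the 10 that fell has it. Among the 86 members without the pattern, 19 rose and 10 fell. Without the 4, 8 and 12 h libraries and their partners at 28, 32 and 36 h, 18 members rose (13.9% of all tested genes) and 9 fell (9% of all tested genes), and the members' median was 0.01. Of these 18, 13 have a KRAB pattern, and of the 9 that fell 3 have it. Without the 2 libraries of low depth 43 rose (17.2% of all tested genes) and 7 fell (10.3% of all tested genes). Without 8 and 32 h 33 rose (14.4% of all tested genes), and without 12 and 36 h 36 rose (13.6% of all tested genes).

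The largest of these increases was in ZNF202, a SCAN and KRAB protein known as a repressor of genes of lipid transport (chr11:123724177-123741675, minus strand). Its mean at pH 6.3 was 6.42 FPKM at 4 to 24 h and 15.5 FPKM at 28 to 48 h, a change of 1.16 ± 0.11 (SE) with an adjusted p of 1.15e-06. Every acid library from 28 h on, at 12.6 FPKM or more, was above every acid library before it, at 8.66 FPKM or less. At pH 7.4 it had 10.0 and 9.14 FPKM. ZNF605, with 17 fingers and a KRAB pattern, went from 8.54 to 18.8 FPKM, a change of 1.13 ± 0.16 (SE), adjusted p 5.04e-05, and overlaps CHFR on the same strand. ZNF841 went from 9.77 to 18.0 FPKM (1.08 ± 0.27, adjusted p 0.00453).

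The members that fell most on the second day in acid have no KRAB pattern. ZNF711, a transcription factor whose loss causes X-linked intellectual disability, went from 8.81 to 4.36 FPKM, a change of -0.78 ± 0.20 (SE), adjusted p 0.00554. Its acid series was highest at 8 h with 14.9 FPKM and stayed at 4.98 FPKM or less from 28 h on. ZNF185, an actin-associated LIM domain protein without a matched finger, went from 12.4 to 6.50 FPKM (-0.77 ± 0.16, adjusted p 0.00104). ZNF609, with 1 matched finger, went from 21.4 to 11.9 FPKM (-0.71 ± 0.18, adjusted p 0.00432). ZNF207 also fell, from 199.6 to 125 FPKM, by -0.66 ± 0.10 with an adjusted p of 4.52e-05.

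At pH 7.4 the second day differed from the first in few members. The test called 3 higher, or 1.76% (3.26% of all tested genes), and 0 lower (2.74% of all tested genes), while 19 were higher and 4 lower at an unadjusted p under 0.05 by limma. The 3 were ZNF114 (12.2 to 28.9 FPKM, adjusted p 0.0413), ZNF860 (7.60 to 14.5 FPKM, adjusted p 0.0418) and ZNF84 (10.5 to 15.8 FPKM, adjusted p 0.0487), all with a KRAB pattern. None of the 3 was called when 8 and 32 h, 12 and 36 h, 16 and 40 h or 20 and 44 h were left out.

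The acid effect itself was compared between the 2 sets of plates with an interaction term. It was more positive at 28 to 52 h in 16 members, or 9.41% (10.5% of all tested genes), and more negative in 6, or 3.53% (6.56% of all tested genes). By structure the 2 counts were 13 and 1 among the members with a KRAB pattern and 3 and 5 among those without. Within 4 to 24 h alone, 10 members were higher in acid (8.57% of all tested genes) and 29 lower (18.1% of all tested genes). Within 28 to 52 h alone, 59 were higher (27% of all tested genes) and 58 lower (36.4% of all tested genes). Without the 2 libraries of low depth 4 members were more positive and 2 more negative. The share of all tested genes in that fit is not given here, so this drop is no result about the members. Without the 2 libraries of low depth and the 4 that followed GC content none was called in either direction (19 and 11 at an unadjusted p under 0.05 by limma). In that fit 0.0169% of all tested genes were called more positive, so the absence of calls says little about the members.

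**Figure D5:**
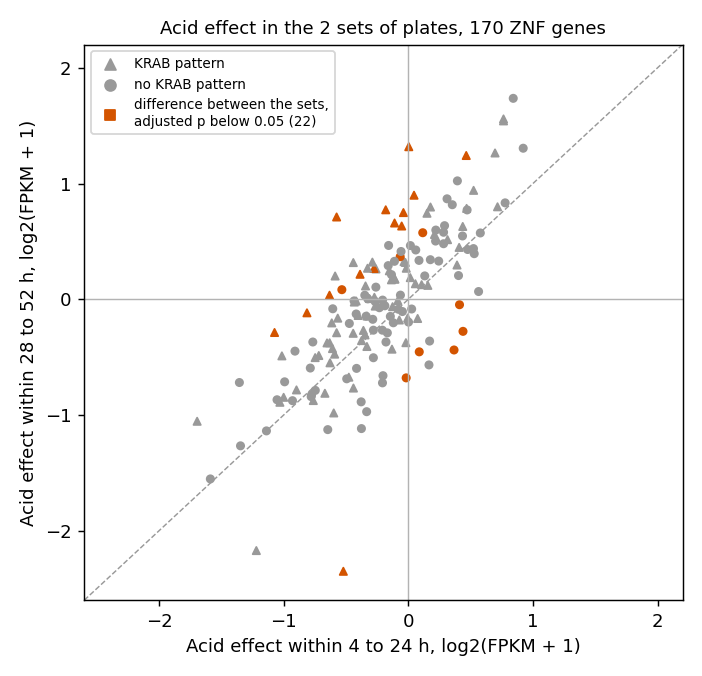
Acid effect within 28 to 52 h against that within 4 to 24 h for the 170 ZNF genes, both on log2(FPKM + 1), with triangles for a KRAB pattern, circles for none and a dashed line of equality. Orange marks the 22 genes whose effects differed between the sets (adjusted p below 0.05), 16 above the line and 6 below it.

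ZNF331, an imprinted KRAB gene of chromosome 19 (chr19:53519527-53580269, plus strand), had the largest difference of this kind in the positive direction. At pH 7.4 it had 7.09 to 13.9 FPKM, the highest at 12 h, while at pH 6.3 it went from 5.28 FPKM at 4 h to 25.1 FPKM at 52 h. The acid effect was 0.00 in the early set and 1.32 in the late set, a difference of 1.31 ± 0.22 (SE), adjusted p 0.00178. ZNF202 was lower in acid at first (-0.57) and higher later (0.71), a difference of 1.29 ± 0.16 (SE) with an adjusted p of 0.000447. ZNF684 and ZNF337, both KRAB genes, differed by 0.95 and 0.85.

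In the other direction stood ZNF114, whose acid effect was -0.52 early and -2.35 late, a difference of -1.83 ± 0.41 (SE), adjusted p 0.00822. ZNF217, a transcriptional regulator amplified in breast cancers, had 16.0 to 24.6 FPKM at pH 7.4 and went from 28.0 FPKM at 4 h to 14.7 FPKM at 48 h at pH 6.3. Its acid effect was 0.37 within the first set and -0.44 within the second, a difference of -0.80 ± 0.17 (SE), adjusted p 0.00691. ZNF367 and ZNF462, the latter the member with 33 fingers, differed by -0.72 and -0.66, with adjusted p of 0.0242 and 0.0459. The call of ZNF462 was lost in 13 alternative settings and kept in 8. That of ZNF367 was lost in 7 and kept in 14.

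Over all times the calls were also counted by structure, to be read against 22.4% of all tested genes called higher and 37.3% called lower. Differences between the classes were not tested. With a KRAB pattern 17 of 84 were higher (20.2%) and 29 lower (34.5%), without it 22 of 86 (25.6%) and 28 (32.6%). Of the 12 members with a SCAN pattern 5 were higher and 5 lower (41.7% each). By fingers, 4 and 7 of the 15 members with 0 or 1 finger were higher and lower, 6 and 6 of the 23 with 2 to 4, 9 and 20 of the 55 with 5 to 9, 10 and 12 of the 45 with 10 to 14, and 10 and 12 of the 32 with 15 or more. Over these 5 classes the share called higher ran from 16.4% (5 to 9 fingers) to 31.2% (15 or more), and the share called lower from 26.1% (2 to 4 fingers) to 46.7% (0 or 1 finger). Across the 170 genes the acid effect had r = 0.056 with the number of fingers and -0.015 with transcript GC content.

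The members lie on 21 chromosomes, with 48 on chromosome 19, where ZNF genes form clusters, and 13 on chromosome 10. On chromosome 19, 11 were higher (22.9%) and 13 lower (27.1%), and elsewhere 28 (23.0%) and 44 (36.1%) of 122, where 22.4% and 37.3% of all tested genes were called. Neighbouring members need not move alike: of 27 pairs within 50000 bases of each other, 14 had the same sign. ZNF263 and ZNF75A on chromosome 16, 4005 bases apart, had 0.60 and -1.35. ZNF226 and ZNF227 on chromosome 19 had 1.00 and 0.54, and ZNF239, ZNF485 and ZNF32 on chromosome 10 had -1.57, -0.44 and -0.77. In all, 53 members overlap another protein-coding gene, 24 of them on the same strand.

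The bases upstream of the start are shown for the members with the largest increase and the largest decrease, and for ZNF226 as an example with the motif ACTACA, chosen after its values were seen. They come from RefSeq promoters on GRCh38.p14, cut to the stretch outside exons annotated in GENCODE 29, 5′ to 3′ on the gene's strand. Capitals mark ACTACA or its reverse complement.
ZNF598 (chr16:2009824-2009925, minus strand): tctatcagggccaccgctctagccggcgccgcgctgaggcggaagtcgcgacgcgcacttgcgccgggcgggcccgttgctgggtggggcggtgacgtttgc
ZNF860 (chr3:31981500-31981749, plus strand): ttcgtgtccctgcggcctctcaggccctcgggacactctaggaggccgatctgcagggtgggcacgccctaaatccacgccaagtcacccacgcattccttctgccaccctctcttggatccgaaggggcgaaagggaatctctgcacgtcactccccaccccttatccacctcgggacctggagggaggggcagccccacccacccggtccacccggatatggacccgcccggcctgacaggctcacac
ZNF226 (chr19:44164850-44165072, plus strand): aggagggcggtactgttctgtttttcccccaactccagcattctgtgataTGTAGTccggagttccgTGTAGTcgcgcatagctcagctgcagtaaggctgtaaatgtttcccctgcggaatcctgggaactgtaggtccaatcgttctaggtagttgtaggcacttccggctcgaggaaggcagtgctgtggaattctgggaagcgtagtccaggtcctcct
Within the 250 bases before the start, ACTACA was found on either strand in 32 of the 150 members with a promoter entry (21.3%) and in 7.76% of 27305 promoters of all genes. It was in 12 of 35 members called higher and in 10 of 51 called lower. CACGTG, the E-box bound by the clock proteins CLOCK and BMAL1, was in 9 members (6.0%) and in 6.49% of all promoters. TATAAA was in 3 members (2.0%) and in 11.1% of all promoters, and the 10-base palindromic core bound by NRF1 in 4 members (2.67%) and in 1.13%. None of the 4 motifs contains another.

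The co-repressors through which KRAB proteins act were also measured. Of 43 tested genes on a list of KRAB co-repressor and heterochromatin genes, 6 rose in acid, where 22.4% of all tested genes did, and 24 fell (55.8%, where 37.3% did). The median was -0.33. TRIM28, the scaffold bound by the KRAB box, rose from 179 ± 75.2 to 315 ± 111 FPKM (SD, n = 13), a difference of 0.88 ± 0.18 (SE), adjusted p 0.000566. SETDB1, its partner methyltransferase for H3K9, had 17.5 ± 2.08 and 15.2 ± 2.82 FPKM and was not called (-0.20 ± 0.10, adjusted p 0.094). Of the heterochromatin proteins that bind that mark, CBX5 fell from 51.9 ± 3.87 to 25.3 ± 6.67 FPKM (-1.04 ± 0.11, adjusted p 1.43e-06). FAM208A, which codes for the HUSH subunit TASOR, fell from 47.7 ± 8.06 to 16.2 ± 6.50 FPKM, by -1.60 ± 0.17 (SE), adjusted p 2.12e-06, at all 13 times. The H3K9 methyltransferases SUV39H1 and SUV39H2 went apart, with 0.47 (adjusted p 0.00812) and -1.14 (adjusted p 1.55e-06).

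Other zinc finger families, taken by symbol and by the same level of 5 FPKM at pH 7.4, gave the following splits, to be read against 22.4% of all tested genes called higher and 37.3% called lower. Of 10 ZSCAN genes none was called higher by limma and 9 were lower, with a median of -0.56. Of 7 KLF genes 5 were higher and none lower, with a median of 0.40, led by KLF9, a glucocorticoid-induced factor (8.62 ± 1.27 to 24.9 ± 6.60 FPKM; SD, n = 13). Of 17 ZBTB genes 7 were higher and 5 lower, and ZBTB5 rose from 10.8 ± 0.71 to 39.3 ± 9.98 FPKM, by 1.74 ± 0.09 (SE), adjusted p 3.83e-09. Of 12 ZC3H genes 2 were higher and 8 lower. Of 7 ZFP genes none was called higher and 3 were lower. Of 51 RNF genes, the RING finger family of ubiquitin ligases, 15 were higher (29.4%) and 18 lower (35.3%). The other families counted were ZKSCAN with 1 higher and 0 lower of 3, and ZDHHC with 0 and 9 of 16. TRIM had 7 and 7 of 24, and PHF 5 and 5 of 15.

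No member had a 24 h rhythm that passed limma's F test in either medium. The test called 5 genes at pH 7.4 (0.0422%) and 0 at pH 6.3 (0%) over all tested genes. At an unadjusted p under 0.05, 3 members were found at pH 7.4 (3.74% of all tested genes) and 23 at pH 6.3 (9.15% of all tested genes). Without the 2 libraries of low depth the numbers were 2 and 10. The shares of all tested genes in that fit are not given here, so the drop is no result about the members. Beside the 24 h term the fit held only a linear trend for each pH, so the low early values in acid can enter that term. Their part was not tested.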

How the data were processed

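The deposited table holds FPKM per gene for 26 libraries. Per the submitters' processing notes the authors used STAR and Cufflinks with hg38, and per the labels' protocols libraries came from a stranded kit on TRIzol RNA. The strand setting of the counting is not given in the sources used here. FPKM hides depth, which was estimated from whole multiples of the value of 1 fragment (87.2 to 94.4% of low values whole within 0.1). For each of 101 symbols on several rows the highest row was kept. Tests used limma 3.58.1 in R 4.3.3 with a mean-variance trend on log2(FPKM + 1), a pseudocount of 1, and Benjamini-Hochberg adjustment over 11838 genes averaging 1 FPKM or more, at 0.05. A fold change on this scale understates that of low genes. Time points pair the media because, per the labels, both were seeded and harvested together. In the data 4 of 13 pairs deviated together with r above 0.1 and 2 correlated best with their own time (r from -0.509 to 0.42). Named genes are the 4 highest, the 8 largest increases and decreases, the 4 largest plate set differences in each direction and the 3 largest second-day changes in each direction among called genes; others are named as members of lists. Members and lists were chosen with earlier results of these data known. Alternatives covered pseudocount, filter, scaling, GC correction, libraries left out, block and membership. Fits were tested on simulated data. Coordinates come from GENCODE 29 (GRCh38). The full leukocyte marker list is not reported here.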

Additional observations from a re-analysis of the deposited data

Results flagged for a closer look

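The acid effect differed between the sets of plates of 4 to 24 h and 28 to 52 h, by limma's interaction term, in 16 members in the positive direction (9.41%, where 10.5% of all tested genes were called) and 6 in the negative direction (3.53%, where 6.56% were). The members' shares are at or below those of all tested genes. The differences (28 to 52 h minus 4 to 24 h, log2) were 1.31 for ZNF331, 1.29 for ZNF202, 0.95 for ZNF684 and 0.85 for ZNF337. They were -1.83 for ZNF114, -0.80 for ZNF217, -0.72 for ZNF367 and -0.66 for ZNF462. The ZNF462 call was lost in 13 alternative settings and kept in 8, and the ZNF367 call was lost in 7 and kept in 14. ZNF202 was lower in acid in 6 of 6 early pairs and higher in 7 of 7 late ones. Time since the medium change and set of plates cannot be told apart here.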

How the results depend on the processing

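The counts of members higher and lower in acid were 10 and 29 within 4 to 24 h (8.57% and 18.1% of all tested genes). They were 59 and 58 within 28 to 52 h (27% and 36.4% of all tested genes). A threshold of 2 FPKM gave 65 and 107 of 316 genes, and a threshold of 10 FPKM gave 16 and 24 of 72. Over all times 22.4% and 37.3% of all tested genes were called. With membership at pH 6.3, 58 of 164 genes were higher and 32 lower, and the median was 0.09, against -0.061 for the other genes. Under quantile normalization the members' median was 0.025. Leaving out each pair of libraries gave 35 to 45 higher, 55 to 60 lower and medians of -0.132 to -0.074. Members with a more positive late effect numbered 9 under quantile normalization, 9 under upper-quartile scaling and 4 without the 2 libraries of low depth. They numbered 0 without 6 libraries, where 0.0169% of all tested genes were called more positive. With 2 FPKM there were 30, with 10 FPKM 6, and leaving out pairs 6 to 22. Members with a more negative late effect numbered 2, 0 (without 2 and 6 libraries), 3 with 10 FPKM, and 2 to 9 leaving out pairs. For late effects under other scaling or with fewer libraries, the share of all tested genes is given only for the fit without 6 libraries. The counts in those settings are thus no result about the members. Without the time point as a block, 39 and 57 members were higher and lower and 10 had a more negative late effect; the pairing moved no other count by over 1.5 times. The second day at pH 7.4 had 0 higher with a pseudocount of 0.1, 1 without a filter, 1 without the 2 libraries, and 0 to 6 higher and 0 to 4 lower leaving out pairs. Without 4, 8 and 12 h and their partners 4 were lower there, and 18 were higher at pH 6.3. Leaving out pairs at pH 6.3 gave 33 to 67 higher and 6 to 13 lower; these sets of hours were chosen after seeing the data. Of the named genes' values under alternatives, 825 kept direction and call, 52 lost and 16 gained the call, and 11 changed sign: ZNF202 -0.575, ZNF605 -0.039, ZNF684 -0.181, ZNF609 0.166 and ZNF217 0.367 within 4 to 24 h, ZNF207 -0.047 and ZNF367 -0.277 within 28 to 52 h, ZNF217 0.008 under quantile normalization, and ZNF367 -0.092, -0.013 and -0.029 without 2 libraries, 6 libraries and the 12 h pair (-0.029 to 0.099 leaving out each pair). Where fewer libraries entered, fewer degrees of freedom remained; otherwise the cause was not tested. Depth limits precision most at 5 FPKM in the shallow libraries.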

Other observations

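ZNF genes below the threshold were also lower in acid at 8 and 12 h. Of 213 tested ZNF genes with 1 to 5 FPKM at pH 7.4, 39 were higher in acid (18.3%, where 22.4% of all tested genes were) and 70 lower (32.9%, where 37.3% were). Their median difference over 8 and 12 h was -0.54, against -0.45 in the 170 genes above the threshold and -0.18 in all tested genes. The largest increases there were in ZNF550 (3.35 ± 0.79 to 16.3 ± 7.17 FPKM; SD, n = 13), ZNF814 (1.30 ± 0.19 to 4.76 ± 1.45 FPKM) and ZNF587B (4.27 ± 0.51 to 10.3 ± 4.60 FPKM). ZNF814 overlaps ZNF587 on the opposite strand. The largest decreases were in ZNF69, ZNF334 and ZNF124, with differences of -1.32, -1.18 and -0.97. The threshold at pH 7.4 left out 23 ZNF genes whose mean was 5 FPKM or more at pH 6.3 alone, and 29 of the 170 members had a mean below 5 FPKM at pH 6.3.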
